A study of Mus musculus with 4 samples.

Results

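Beta-tubulin pairs with alpha-tubulin in the dimer from which microtubules are built, and an oocyte needs microtubules for the meiotic spindle that it assembles without centrioles. The mouse encodes beta-tubulin in a small family of isotype genes whose proteins are alike over most of their length and end in an acidic tail at the C-terminus, which varies between isotypes, projects from the microtubule and binds motors and modifying enzymes. The 8 genes described here were taken by symbol (*Tubb1*, *Tubb2a*, *Tubb2b*, *Tubb3*, *Tubb4a*, *Tubb4b*, *Tubb5* and *Tubb6*), and all 8 were found among the 21957 genes of the expression table. The rule uses symbols and no threshold on a value.

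The oocytes came from hybrid B6D2F1 (C57BL/6 x DBA) females of 6 to 8 weeks and were freed of cumulus cells. Germinal vesicle (GV) oocytes were taken at 0 h and were not treated. The others were cultured for 12 h in M16 medium, either untreated (MII) or with tubastatin A, a hydroxamate made to inhibit the cytoplasmic deacetylase HDAC6, which removes acetyl groups from alpha-tubulin. TubA-10 and TubA-20 stand for the 10 and 20 μM given in the sample titles and the methods, although another field of the same labels gives 20 and 11 μM. MII oocytes were collected only when they had extruded a polar body, and the drug had been dissolved in DMSO while the MII label says non-treated. Drug, vehicle and meiotic stage therefore cannot be told apart in comparisons of TubA-10 or TubA-20 with MII. Comparisons of these with GV add the 12 h of culture, which also parts MII from GV.

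Each condition had 1 library, made from a pool of 100 oocytes by the methods (the study elsewhere speaks of single oocytes), so the spread between replicates is unknown and no difference has a p-value. Values are FPKM, a fragment abundance corrected for both sequencing depth and transcript length, as the authors deposited them, and the length correction allows levels of different genes to be compared. Changes are log2 ratios of FPKM + 1, which understate the change of low values, and a gene is called higher or lower when the ratio passes 2-fold. RNA was selected with oligo(dT), so mRNA with a short poly(A) tail and less mRNA cannot be told apart. Each library summed to between 568331 and 627340 FPKM. The table gives no read counts. Oocyte markers (8 genes, *Gdf9* and *Zp3* among them) were all expressed, with summed FPKM between 9339 and 12796. They moved apart in TubA-20, where 4 of the 8 were more than 2-fold lower and 2 higher than in GV, and 3 were lower and 0 higher than in MII. Of all genes, 11.7% were lower and 7.61% higher than in GV, and 2.44% lower and 0.328% higher than in MII. Of genes with at least 5 FPKM in 1 of both libraries, these shares were 26.8%, 20.2%, 6.09% and 0.542%. Against MII, *Zp2* changed by −1.41, *Zp3* by −1.21 and *Figla*, an oocyte transcription factor, by −1.68. The 14 cumulus and granulosa cell markers added up to between 21.9 and 26.6 FPKM, with *Foxl2* at 0 in all 4 libraries and *Amh* above 0 only in GV (0.127). One of them, *Inha*, stood at 7.50 FPKM in GV and between 0.239 and 0.314 in the others, and its part in the falls from GV described below was not tested.

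The sequences below show how the isotypes differ. All 8 proteins begin with the same 4 residues (Met-Arg-Glu-Ile), the stretch that the factor TTC5 recognises on the growing chain when cells hold too much free tubulin and degrade tubulin mRNA. The codons are not shared: *Tubb5* opens with atgagggaaatc, *Tubb2a* with atgcgcgagatc and *Tubb2b* with atgcgagagatc, while *Tubb3* and *Tubb4b* both use atgagggagatc. At the other end the tails separate the isotypes. The lines give the end of the coding sequence, from GENCODE M21 transcripts on GRCm38, with the tail codons in capitals after the codons for Gln-Asp-Ala-Thr, residues common to these isotypes, and before the stop codon. All lie in exon 4, the last exon of each gene.
Tubb4b (chr2:25222308-25222370, minus strand): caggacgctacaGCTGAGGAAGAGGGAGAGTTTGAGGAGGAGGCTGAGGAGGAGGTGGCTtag
Tubb5 (chr17:35834982-35835041, minus strand): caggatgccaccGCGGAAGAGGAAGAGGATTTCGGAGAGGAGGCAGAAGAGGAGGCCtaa
Tubb2a (chr13:34074468-34074530, minus strand): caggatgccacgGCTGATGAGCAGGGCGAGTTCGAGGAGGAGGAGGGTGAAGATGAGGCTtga
Tubb2b (chr13:34127471-34127533, minus strand): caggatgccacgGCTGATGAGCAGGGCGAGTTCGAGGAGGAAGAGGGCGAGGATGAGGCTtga
Tubb3 (chr8:123421605-123421682, plus strand): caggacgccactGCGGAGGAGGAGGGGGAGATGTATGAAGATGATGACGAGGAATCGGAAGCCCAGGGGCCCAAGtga

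The *Tubb3* tail is the longest of these 5, with 21 residues of which 11 are acidic, and it alone carries a tyrosine and a basic residue. The tails of *Tubb4b*, *Tubb2a* and *Tubb2b* have 16 residues and that of *Tubb5* 15, each with 10 acidic residues. *Tubb2a* and *Tubb2b* encode the same tail. Over their last 60 coding bases they differ at 3 bases and at 0 residues, and their whole proteins are 99.6% identical, with 2 differences in 445 residues. *Tubb4b* and *Tubb5* are 97.5% identical, *Tubb2a* and *Tubb3* 90.9%, and *Tubb5* and *Tubb6* 91.1%, while *Tubb1* is the most distant member at 77.5% to 78.5% of any other.

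Of the 8 genes, 6 were expressed, here meaning at least 5 FPKM in 1 library or more. *Tubb4b*, the broadly expressed isotype that is also abundant in cilia, had 662 FPKM in GV and 171 in MII, against 215 with TubA-10 and 94.6 with TubA-20. GV stood far above the other libraries, and *Tubb4b* ranked 162nd of all genes there. *Tubb6*, a minor isotype of most tissues, had 238 FPKM in GV and 129 in MII, against 199 with TubA-10 and 63.0 with TubA-20. *Tubb5*, the common isotype of dividing cells, had 52.9, 24.6, 38.0 and 11.4 FPKM in the same order. It was thus among the lower members in every library, at 1.86% to 3.91% of the family's FPKM.

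The neuronal isotypes split. *Tubb2a* had 197 FPKM in GV and 319 in MII, against 354 with TubA-10 and 185 with TubA-20. It was highest in MII and TubA-10, with GV and TubA-20 close together. *Tubb3*, best known as a marker of neurons, had 166 FPKM in GV and 207 in MII, against 164 with TubA-10 and 253 with TubA-20, the narrowest range of the expressed members (1.55 times between lowest and highest). *Tubb2b*, the near twin of *Tubb2a*, had 35.1 FPKM in GV and 13.6 in MII, against 18.0 with TubA-10 and 2.98 with TubA-20, the widest range at 11.8 times. The 5 neuron markers added up to between 2.18 and 5.24 FPKM, nearly all of it *Map2*, with *Syp* at 0 in all 4 libraries.

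The remaining pair was near or at 0. *Tubb1*, the isotype of platelets and megakaryocytes, was listed at 0 in all 4 libraries, as were 7 of the 9 blood and platelet markers, *Pf4*, *Ppbp* and *Gp9* among them. *Tubb4a*, an isotype of brain and myelinating cells, was listed at 0 in GV, at 0.0353 FPKM in MII, at 0.0347 in TubA-10 and at 0.134 in TubA-20, too low to give a direction.

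**Figure D1:**
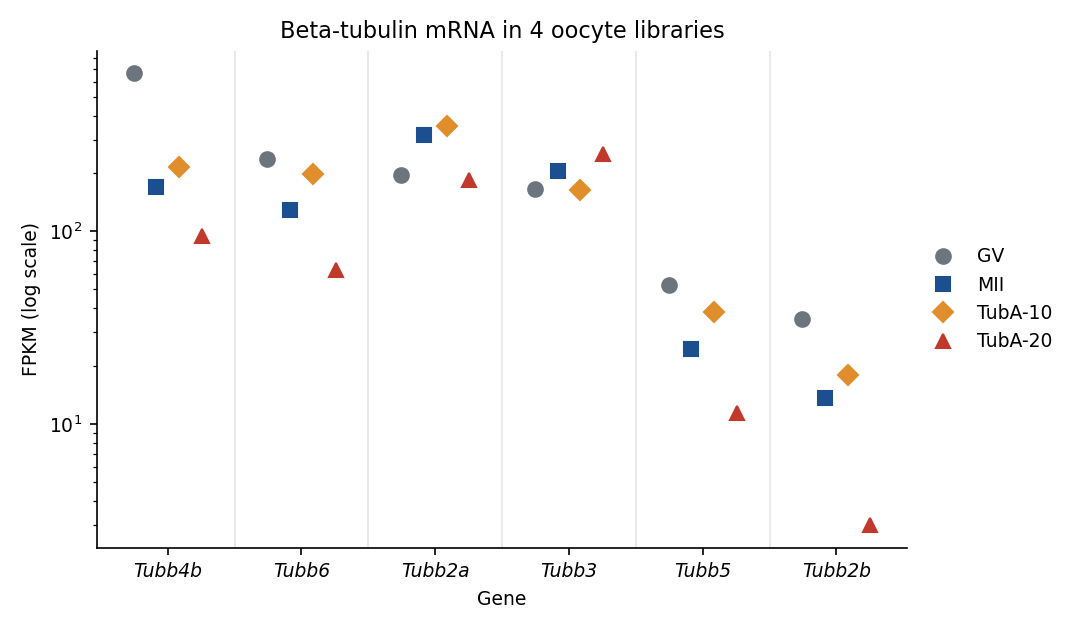
FPKM (log axis) of the 6 expressed beta-tubulin genes, with 1 point per library. GV is the highest and TubA-20 the lowest point for Tubb4b, Tubb6, Tubb5 and Tubb2b, while TubA-20 is the highest for Tubb3 and TubA-10 for Tubb2a.

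*Tubb4b*, *Tubb6*, *Tubb5* and *Tubb2b* thus shared 1 order of the libraries, with GV highest, then TubA-10, MII and TubA-20. Of the 7897 genes with at least 5 FPKM in 1 library, 24.2% had this order, and it was the second most frequent of all orders after its reverse at 28.5%. Between members, the profiles of *Tubb5* and *Tubb6* were the closest. After each gene was centred on its mean over the 4 libraries, they differed by a root mean square of 0.092 on the log2 scale. *Tubb2b* and *Tubb3* were the farthest apart at 1.40, and *Tubb2a* differed from its near twin *Tubb2b* by 1.11.

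The family as a whole made up 1351 FPKM in GV and 863 in MII, against 988 with TubA-10 and 610 with TubA-20, or 0.217%, 0.152%, 0.167% and 0.0973% of all FPKM in the library. The sum lay below GV by a log2 change of −0.65 in MII, of −0.45 with TubA-10 and of −1.15 with TubA-20. TubA-20 was below MII by −0.50. The change from GV rested largely on *Tubb4b*. Without it this was 0.0079 in MII, 0.17 with TubA-10 and −0.42 with TubA-20. The difference of TubA-20 from MII did not rest on it, being also −0.42 without *Tubb4b*. Without *Tubb2a* and *Tubb2b* the change in MII was −1.07.

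The isotypes changed places as well. *Tubb4b* supplied 49.0% of beta-tubulin FPKM in GV and 19.8% in MII, against 21.8% with TubA-10 and 15.5% with TubA-20. *Tubb2a* supplied 14.6% in GV and was the leading isotype in MII (36.9%) and TubA-10 (35.9%). In TubA-20 *Tubb3* led with 41.5%, against 12.3% in GV, 24.0% in MII and 16.5% in TubA-10. *Tubb2a* and *Tubb3* together made up 26.9% in GV and 60.9% in MII, against 52.4% with TubA-10 and 71.8% with TubA-20. Set against each other, *Tubb4b* had 3.98 times the FPKM of *Tubb3* in GV, and *Tubb3* had 2.68 times that of *Tubb4b* in TubA-20. These ratios lie within a library and do not depend on how libraries are scaled.

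**Figure D2:**
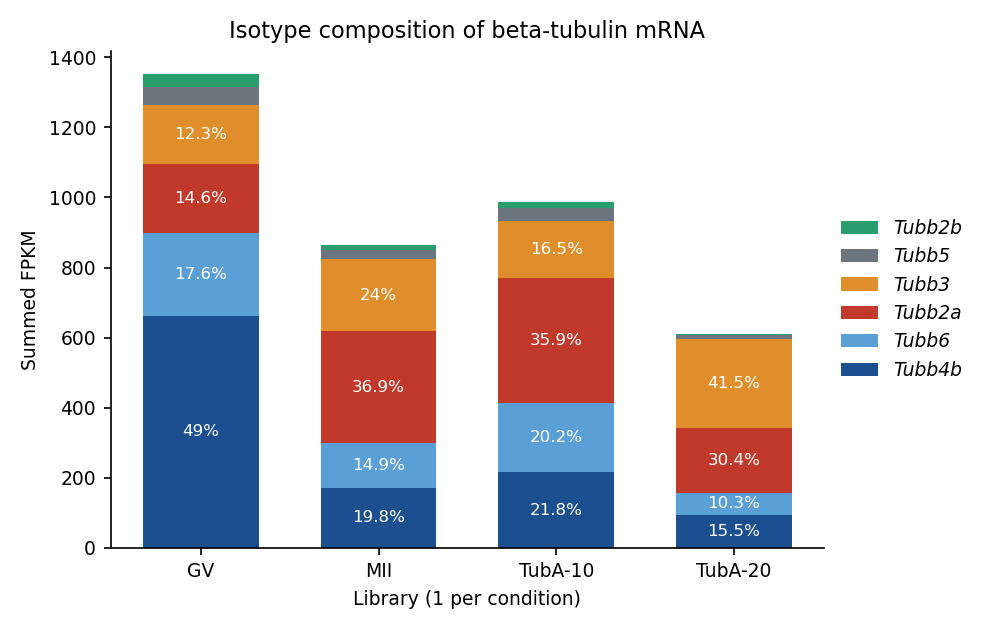
Stacked bars of the FPKM of the 6 expressed beta-tubulin genes in each library, with the share of the family's FPKM printed in segments above 60 FPKM. Tubb4b is the largest segment in GV (49.0%), Tubb2a in MII and TubA-10, and Tubb3 in TubA-20 (41.5%).

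MII differs from GV by maturation without drug, by 12 h of culture and by selection for a polar body. From GV to MII, 3 of the 8 genes were more than 2-fold lower (*Tubb4b*, *Tubb2b* and *Tubb5*) and 0 were more than 2-fold higher. Of all 21957 genes 8.34% were lower and 3.05% higher by as much, and of the 7685 genes with at least 5 FPKM in 1 of both libraries 20.8% were lower. *Tubb4b* changed by −1.95, *Tubb2b* by −1.31, *Tubb5* by −1.08 and *Tubb6* by −0.88, while *Tubb2a* was at 0.69 and *Tubb3* at 0.31. The median of the 8 genes, 2 of which are at or near 0, was −0.44. That of all genes was 0, held there by the many that are not expressed, and that of expressed genes was 0.11. A further scaling set to 0 the median log2 ratio of FPKM, with nothing added, of genes with at least 1 FPKM in all 4 libraries. It shifts the log2 changes of well-expressed genes from GV by −0.14 in MII, −0.16 with TubA-10 and −0.23 with TubA-20. Equal FPKM sums shift those in MII by 0.13. *Tubb5* did not pass 2-fold in MII with equal FPKM sums (−0.95), and *Tubb6* passed it with the median set to 0 (−1.02).

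In TubA-10 against GV, 1 gene was more than 2-fold lower, *Tubb4b* at −1.62, and 0 were higher. Of all genes 5.6% were lower and 0.742% higher, and of expressed genes 14.2% were lower and 1.77% higher. *Tubb2b* was at −0.92, which became −1.08 with the median set to 0. *Tubb5* was at −0.47 and *Tubb6* at −0.25. *Tubb2a* was at 0.85, with 4.96% of the 7579 genes with at least 5 FPKM in 1 of both libraries above it. *Tubb3* was at −0.03 and turned to 0.05 with equal FPKM sums.

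In TubA-20 against GV, 4 genes were more than 2-fold lower and 0 higher, where 11.7% of all genes were lower and 7.61% higher. Among the 7778 expressed genes of this comparison 26.8% were lower. *Tubb2b* changed by −3.18, *Tubb4b* by −2.80, *Tubb5* by −2.12 and *Tubb6* by −1.90. The same 4 genes had been below GV in MII. *Tubb2a* was at −0.09, and *Tubb3* at 0.60. These 3 comparisons share the GV library, so a high or low GV value enters all of them.

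Between the libraries cultured for 12 h, TubA-10 and MII were close. None of the 8 genes differed by more than 2-fold, where 0.515% of all genes were higher and 0.128% lower in TubA-10. *Tubb6* was higher in TubA-10 by 0.63, *Tubb5* by 0.61, *Tubb2b* by 0.39, *Tubb4b* by 0.33 and *Tubb2a* by 0.15, and *Tubb3* was lower by 0.34. With no replicates, how often differences of this size come from the libraries alone is unknown.

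In TubA-20 against MII, 3 genes were more than 2-fold lower and 0 higher, where 2.44% of all genes were lower and 0.328% higher, and 6.09% of the 7197 expressed genes were lower. *Tubb2b* changed by −1.87, with 0.208% of expressed genes below it. *Tubb5* was at −1.05 and *Tubb6* at −1.02, which fell just short of 2-fold with equal upper quartiles (−0.99). *Tubb4b* at −0.85 and *Tubb2a* at −0.78 were lower by less than 2-fold. *Tubb3* was at 0.29. The median of the 8 genes was −0.81, that of all genes 0 and that of expressed genes 0.06. The 3 of 8 lower genes stand beside the 3 of 8 oocyte markers given above. At the 3-fold level *Tubb2b* alone remained.

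TubA-20 against TubA-10, the step between the doses, was compared last. *Tubb2b* (−2.26), *Tubb5* (−1.65), *Tubb6* (−1.65) and *Tubb4b* (−1.18) were more than 2-fold lower, 4 of the 8 genes, and 0 were higher. Of all genes 5.52% were lower and 0.66% higher, and of genes with at least 5 FPKM in 1 of both libraries 14.1% were lower and 1.45% higher. *Tubb2a* was at −0.93 and passed 2-fold with equal FPKM sums (−1.02), and *Tubb3* was at 0.63.

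**Figure D3:**
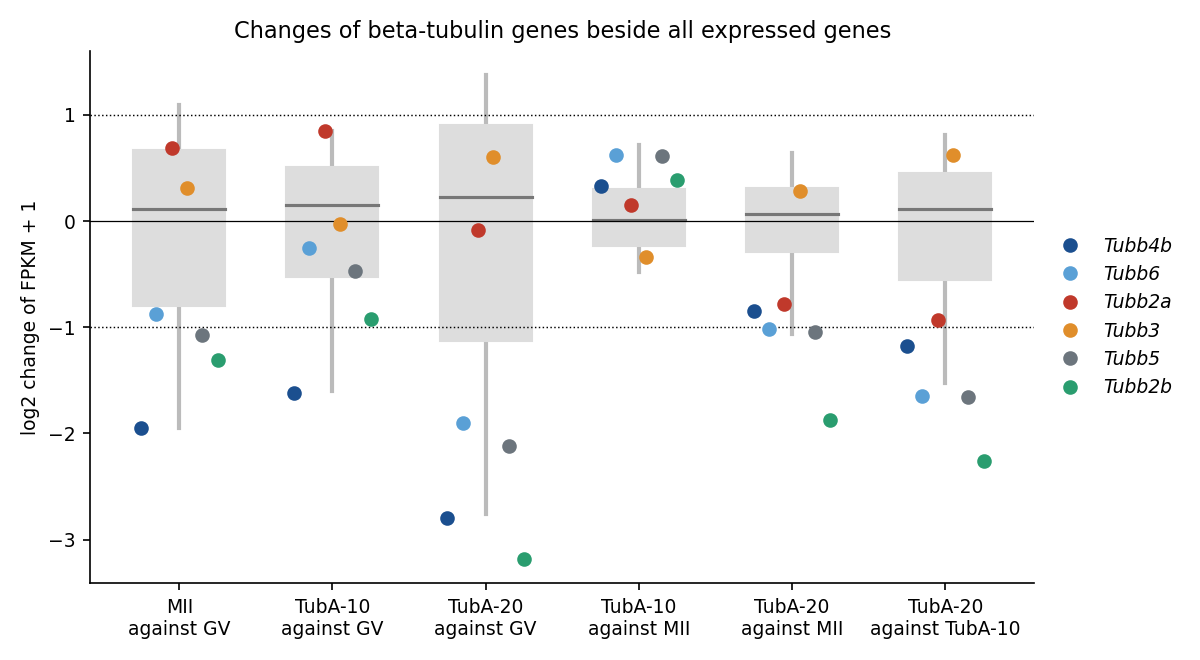
Log2 change of FPKM + 1 of the 6 expressed beta-tubulin genes (points) in 6 comparisons of libraries. Grey boxes give the middle 50% of genes with at least 5 FPKM in 1 of both libraries, grey lines their 5th to 95th percentiles, grey bars their median and dotted lines 2-fold. Tubb2b, Tubb5 and Tubb6 lie below −1 in every comparison of TubA-20 with another library, and Tubb3 lies above 0 in all 3.

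Part of the reads of some isotypes fits more than 1 gene, which bears on how firmly these values stand. Of all windows of 100 bases in the main *Tubb2a* transcript, 36.9% occur unchanged in another annotated transcript, mostly that of *Tubb2b* (543 windows). For *Tubb2b* the share was 27.7%, and for *Tubb4b* 29.2%, mostly the pseudogene *Tubb4b-ps1* (411 windows). *Tubb3*, *Tubb5*, *Tubb6*, *Tubb1* and *Tubb4a* had 0 such windows. The values of *Tubb2a*, *Tubb2b* and *Tubb4b* are therefore uncertain, since by its default cufflinks divides a read among all places it maps to. The study sequenced fragments from both ends, so single windows of 100 bases can overstate how many fragments fit more than 1 gene. How shared reads were divided here was not tested. The ratio of *Tubb2a* to *Tubb2b* was 5.60 in GV and 23.5 in MII, against 19.6 with TubA-10 and 62.2 with TubA-20. *Tubb4b* also overlaps *Fam166a* on the opposite strand by 121 exon bases. *Fam166a* was highest in GV as well (19.2 FPKM), with 3.51 in MII, 4.71 with TubA-10 and 2.01 with TubA-20, and the counting was set to use strand.

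Positions of all members but *Tubb6* are given on GRCm38. *Tubb2a* (chr13:34074274-34078007) and *Tubb2b* (chr13:34126748-34130466) are neighbours on the minus strand, and *Tubb5* (chr17:35833921-35838306) and *Tubb4a* (chr17:57080066-57087782) share a chromosome, as do *Tubb4b* (chr2:25222160-25224702) and *Tubb1* (chr2:174450695-174457882). *Tubb3* lies at chr8:123411424-123422015. Each main transcript has 4 exons. The 3′ UTRs differ far more than the coding parts, from 148 bases in *Tubb4b* and 194 in *Tubb2a* to 333 in *Tubb3*, 373 in *Tubb6*, 723 in *Tubb2b* and 1061 in *Tubb5*.

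In growing oocytes many mRNAs are stored with short tails, and the cytoplasmic polyadenylation element (CPE), read by CPEB1, lets some of them regain a tail during maturation. The CPE was searched as TTTTAT or TTTTAAT on the mRNA strand of each annotated 3′ UTR. Either form can overlap a poly(A) signal motif (AATAAA or ATTAAA), and neither form contains one. *Tubb3* holds 1, starting 94 bases before the end of the transcript, and *Tubb2b* holds 2, at 226 and 31 bases. *Tubb4b*, *Tubb2a*, *Tubb5* and *Tubb6* hold 0. Of 7792 expressed genes with a 3′ UTR, 59.8% hold at least 1, with a median length of 870 bases, and 20.6% hold 1 within the last 100 bases, where *Tubb3* and *Tubb2b* hold 1 each. The 30 bases around each match are given with the motif in capitals, since these sites separate *Tubb3* and *Tubb2b* from the rest of the expressed members.
Tubb3, 94 bases from the end (chr8:123421911-123421940, plus strand): tattcgtctgtTTTTATggtttgttttgtt
Tubb2b, 226 bases from the end (chr13:34126955-34126984, minus strand): tgagagtgtgtTTTTATgaagatgttgcca
Tubb2b, 31 bases from the end (chr13:34126760-34126789, minus strand): agttatatcatTTTTATgatgctgggaatc

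The 2 genes with a match were the expressed member with the smallest range over the libraries and the one with the largest, and *Tubb2a*, which was higher in MII than in GV, has none. Whether these sites bear on the values was not tested. Of the expressed members, only the annotated *Tubb2b* transcript lacks a poly(A) signal motif (AATAAA or ATTAAA). In the others the last such motif starts 19 to 32 bases from the end.

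**Figure D4:**
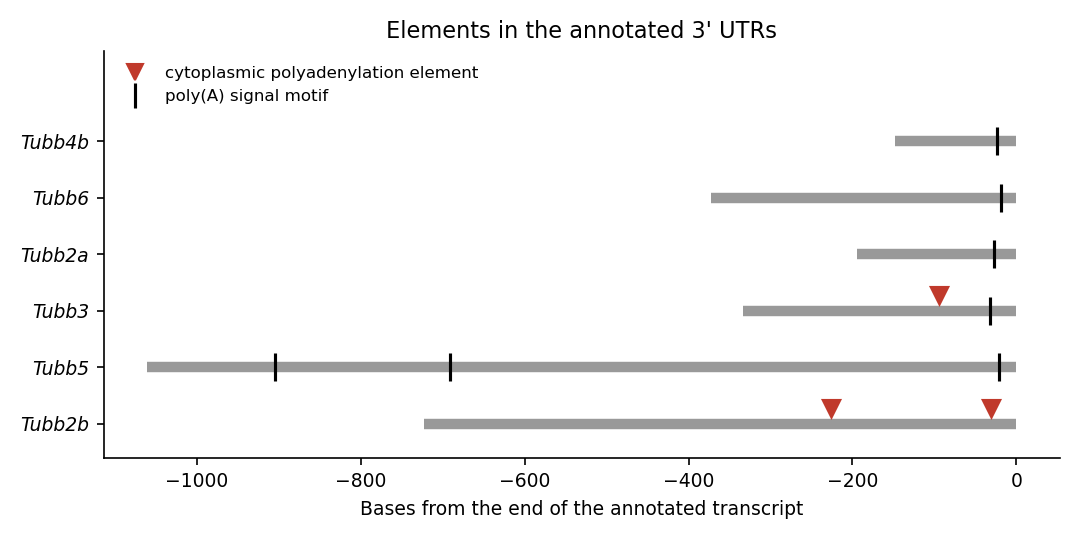
Annotated 3′ UTRs of the 6 expressed beta-tubulin genes as grey bars, drawn to scale in bases from the transcript end, with red triangles for the CPE and black ticks for poly(A) signal motifs. The CPE is present in Tubb3 (1) and Tubb2b (2) and the other bars have none.

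The partners of beta-tubulin were described from lists of genes, which hold expressed and unexpressed members. Of all genes, 8.34% were lower and 3.05% higher in MII than in GV, and 11.7% lower and 7.61% higher with TubA-20. Of expressed genes, 20.8% were lower and 8.26% higher in MII, and 26.8% lower and 20.2% higher with TubA-20. A list that mixes expressed and unexpressed genes has neither share as its exact background. Alpha-tubulin FPKM, summed over 8 genes, was 520 in GV and 211 in MII, against 256 with TubA-10 and 176 with TubA-20. Alpha over beta was 0.385, 0.244, 0.259 and 0.288 in that order, so the highest ratio was that of GV. Without *Tuba3a*, the alpha gene with the highest sum over the libraries, the ratios were 0.242, 0.171, 0.160 and 0.229. Of the 8 alpha genes, 3 were more than 2-fold lower in MII than in GV and 4 in TubA-20, with 0 higher in both, where 20.8% and 26.8% of expressed genes were lower. *Tuba4a* stood at 182 FPKM in GV, against 29.6 in MII and 13.4 with TubA-20, and *Tuba3a* at 193, 62.7 and 36.1. *Tuba1c* was the leading alpha gene of MII and TubA-20, with 67.0 FPKM in GV, then 72.0 and 84.9. Several alpha genes are near-identical, so their values are uncertain as well.

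Of the 7 folding cofactor genes, which handle the tubulin chains after the chaperonin, 1 was more than 2-fold lower in MII than in GV, 3 were lower in TubA-20 and 0 were higher. Of the 7, 5 reached 5 FPKM in 1 library or more, and the lower genes were all among these. The shares lower in MII and in TubA-20 were 8.34% and 11.7% of all genes, and 20.8% and 26.8% of expressed genes. *Tbca*, whose product holds free beta-tubulin, was at 307 FPKM in GV and 299 in MII, against 352 with TubA-10 and 264 with TubA-20. *Tbcb*, which handles alpha-tubulin, was at 118, 50.9, 55.9 and 37.9, and *Arl2*, the small GTPase of the cofactor complex, at 251, 172, 210 and 96.3. *Ttc5* itself was at 18.3 FPKM in GV and 5.66 in MII, against 6.88 with TubA-10 and 2.58 with TubA-20, and *Cnot11*, a deadenylase subunit in the same decay route, at 189, 162, 196 and 162.

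Of the 9 genes of gamma-, delta- and epsilon-tubulin and the gamma-tubulin ring complex, 7 had higher values in MII and in TubA-20 than in GV. Of expressed genes, 53.4% and 55.0% had higher values in these comparisons. By more than 2-fold, 0 of the 9 were higher in MII and 2 in TubA-20, where 8.26% and 20.2% of expressed genes were. Of the 9, 7 reached 5 FPKM in 1 library or more, and not all genes with higher values were among these. *Tubg2* was at 55.0 FPKM in GV, against 99.9 in MII and 134 with TubA-20, and *Tubgcp4* changed by 0.57 in MII and 1.30 with TubA-20. *Tubd1* was the exception past 2-fold, at 14.3, 6.21 and 3.52. Of 16 genes for proteins that bind or regulate microtubules, 0 passed 2-fold in MII, and 4 were more than 2-fold higher and 0 lower in TubA-20. Of these 16 genes, 12 reached 5 FPKM in 1 library or more, among them all 4 that were higher. In TubA-20, 7.61% of all genes and 20.2% of expressed genes were higher than in GV. Examples of the 4 were *Kif2a*, a depolymerase, at 25.2, 44.6 and 59.5 FPKM, and *Mapre1*, a plus-end binding protein, at 27.1, 42.5 and 62.4.

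Among 19 genes for enzymes that add glutamate or glycine to tubulin tails or remove glutamate from them, 4 were more than 2-fold lower and 1 higher in MII than in GV, and 4 lower and 2 higher in TubA-20. Only 8 of the 19 reached 5 FPKM in 1 library or more. Of the 4 lower genes, the same in both comparisons, 2 did not reach it, while the higher genes did. The shares lower in MII and in TubA-20 were 8.34% and 11.7% of all genes, and 20.8% and 26.8% of expressed genes. The shares higher were 3.05% and 7.61% of all genes, and 8.26% and 20.2% of expressed genes. *Ttll1*, the catalytic part of a polyglutamylase, was at 20.8 FPKM in GV, against 7.07 in MII and 2.57 with TubA-20. *Ttll5*, another glutamylase, was at 21.5, 50.7 and 59.5. *Agtpbp1*, which trims glutamate chains, was at 27.8, 46.7 and 55.4. The median log2 change of TubA-20 against GV was −0.99 for the beta genes, −0.77 for the alpha genes, −0.66 for the cofactors, −0.05 for the tail enzymes, 0.43 for the microtubule-binding genes and 0.76 for the gamma-tubulin group, against 0 for all genes and 0.23 for expressed genes.

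**Figure D5:**
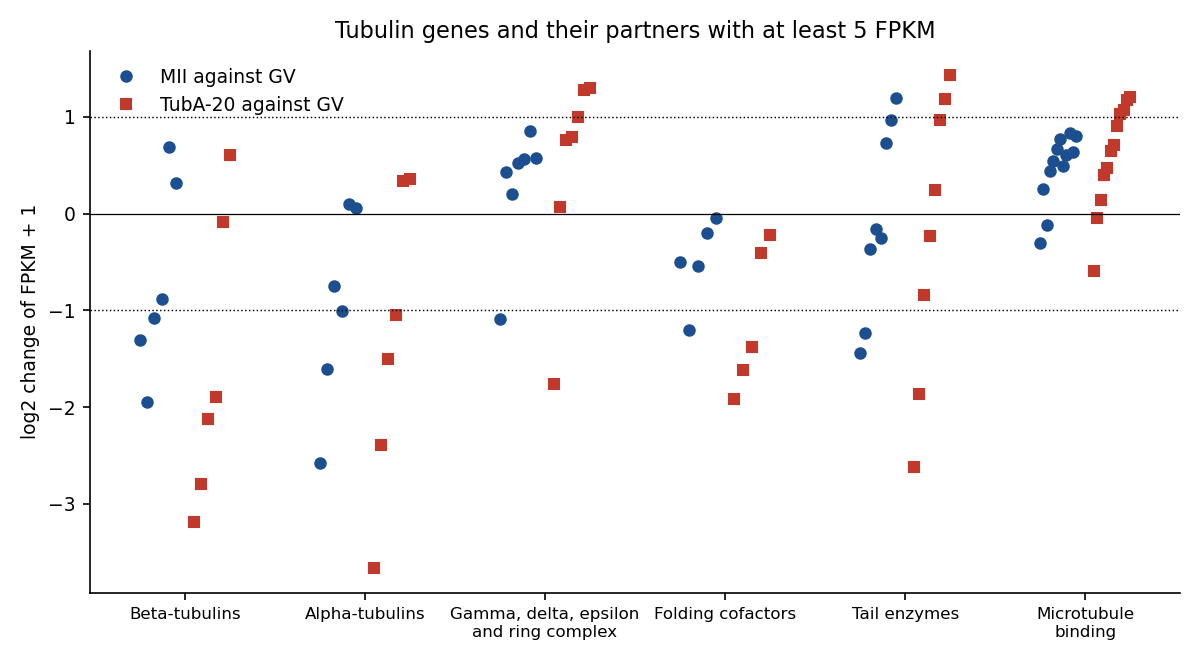
Log2 change of FPKM + 1 against GV in MII (blue circles) and TubA-20 (red squares) for genes of 6 lists with at least 5 FPKM in 1 library, sorted within a list by the TubA-20 value. Dotted lines mark 2-fold. Of the beta-tubulin genes 4 lie below −1 in TubA-20, and the squares of the microtubule-binding genes lie mostly above 0.

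Genes with the most similar profile were found for each expressed member by the root mean square difference of centred log2 values over 4 libraries, among 7896 other genes. With 4 points many genes can look alike. For *Tubb4b* the nearest were *Ndufb11*, *Dnlz* and *Cpsf4*, with differences between 0.016 and 0.027, and 40 genes lay within 0.1. *Ndufb11* stood at 647 FPKM in GV, close to *Tubb4b* itself, and at 93.6 with TubA-20. *Tubb3* had 183 genes within 0.1, led by *Pgrmc2*, *Sash1* and *Lsm11*. *Tubb5* had 29, led by *Gm4985* and *Rpl7l1*, and *Tubb6* had 28, led by *Txndc12*, *Morn2* and *Pkm*. *Tubb2a* had 6, led by *Crip2*, *Zfp982* and *Mtx2*, and *Tubb2b* had 1, *Pdlim2*, followed by *Smim7* and *Atp5j*. *Tubb2a* and *Tubb2b* thus had the fewest near neighbours of the family.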

How the data were processed

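RNA was measured in 4 libraries, 1 per condition. The authors deposited 1 table of FPKM values (21959 entries) made with cufflinks on mm10 and a strand-specific library type, after STAR 2.5.0 per the submitters' processing notes, which also name Cuffdiff 2.2.1. The methods name a UCSC gene model, while entries carry Ensembl identifiers, and cufflinks was run with defaults, which divide a read evenly among all places it maps to. The study states read totals, higher for MII and TubA-10 than for GV and TubA-20. A low FPKM rests on few fragments. Symbols were joined by identifier (165 entries had none) and entries sharing a symbol were added up. Log2 ratios of FPKM + 1 were computed for the 6 pairs of libraries and called past 2-fold, with no filter and no test. All 8 members are named. Other genes could be named with at least 5 FPKM in 1 library or as the 3 nearest profiles (1 of these is not reported here), and *Foxl2*, *Amh*, *Map2*, *Syp*, *Pf4*, *Ppbp*, *Gp9* and *Fam166a* were named after their values were seen. One listed symbol of the mRNA decay route matched no entry. The members and lists were chosen with earlier results of these data known. Pseudocounts of 0.1 and 0.01, 3 scalings, minimum values of 1 and 5 FPKM, a 3-fold threshold and sums without some members were tried as alternatives. Transcripts, exons and 3′ UTRs came from GENCODE M21 (GRCm38, the build of mm10), using the APPRIS principal transcript, or the longest of several. Proteins were translated from these and aligned globally. Scripts were tested on simulated data. Python 3.11.15, numpy 2.4.6, pandas 2.3.3, biopython 1.88 and matplotlib 3.10.9 were used.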

Additional observations from a re-analysis of the deposited data

How the results depend on the processing

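No paired analysis was possible because each condition had 1 library. Among the alternative values for single members that could move (without *Tubb1*, at 0 throughout, and without the choice between entries of a symbol, of which each member has 1), 198 kept their direction and their side of 2-fold, 9 newly passed it, 2 no longer did and 1, below 2-fold throughout, turned its sign. The sum of the family depended on its members. Leaving out *Tubb4b* moved its change from GV to 0.0079 in MII, 0.17 with TubA-10 and −0.42 with TubA-20, and leaving out *Tubb2a* and *Tubb2b* moved MII to −1.07. The number of genes past 2-fold in TubA-10 against GV went from 1 to 2 with a pseudocount of 0.01 and with the median change set to 0. A 3-fold threshold left 1 gene in MII against GV and 1 in TubA-20 against MII. The log2 changes of *Tubb4a* passed 2-fold with smaller pseudocounts (3.85 in TubA-20 against GV with 0.01), which here act on values under 0.15 FPKM. No entry for a beta-tubulin pseudogene was in the table used, so adding such entries was not run. FPKM without counts give no interval for any value.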
